A study of Homo sapiens with 38 samples.

Results

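The 30 genes described here make, move and sense cholesterol: the enzymes from acetyl-CoA to cholesterol, the sterol regulatory element-binding proteins (SREBPs) with the membrane proteins that hold or escort them, and carriers of sterols and fatty acid enzymes that share their control. They were chosen by name, with earlier results of these data already known. For each gene the enriched regions of BHLHE40, GATA3 and acetylated histone H3 lysine 27 (H3K27ac) were collected over its RefSeq gene record and 5 kb to each side, called the gene window, and the 30 genes were set beside all 20037 protein-coding genes of the nuclear chromosomes. The RefSeq promoter set used here gave a transcription start, called known below, for 25 members and 15825 protein-coding genes. This set was incomplete: it held no start on chromosome 8, where FDFT1 and SQLE lie. ACAT2, FDFT1, SQLE, FASN and ABCG1 are described by their gene window only.

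The series profiled transcription factors and histone marks in Jurkat cells, a human T-cell acute leukaemia line, by ChIP-seq, in which DNA held by a protein is recovered with an antibody and sequenced. Its 38 samples form 19 groups of 2 samples. The 3 groups used here share 1 genotype and 1 state: wild-type Jurkat cells that carried a control lentivirus (Ctrl_LV) and were stimulated with 50 ng/ml PMA and 500 ng/ml ionomycin, which together imitate a signal through the T-cell receptor. They differ in the antibody alone, against BHLHE40, GATA3 or H3K27ac. The stimulation is given as 5 hours in the sample labels and as 2 hours in the protocol. The 16 other groups, with edited cells, another control, other antibodies, input DNA or BHLHE40 over-expression, were not used here, so no value below compares conditions. Each antibody is represented by 1 list for both samples: 26205 regions for BHLHE40, 29009 for GATA3 and 113570 for H3K27ac. These lists hold no value per sample, so no spread between replicates could be given, and counts and shares are given as a description without a test. Of the T-cell markers, all 8 had BHLHE40 and H3K27ac regions in their windows. CSF1R, LYZ and MS4A1, markers of myeloid or B cells, had no H3K27ac region, CD14 had 1, and the B-cell gene CD79A had 4.

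Cholesterol is built from acetyl-CoA through mevalonate, squalene and lanosterol. When membranes of the endoplasmic reticulum hold little sterol, SCAP carries the SREBPs to the Golgi, where proteases free their transcription factor domains, and these enter the nucleus and switch on the pathway's genes through sterol regulatory elements, usually beside sites for NF-Y and SP factors. INSIG1 and INSIG2 keep SCAP in place when sterol is abundant. Activated T cells raise this programme to supply membrane for division. BHLHE40 is a basic helix-loop-helix factor, mostly a repressor, that binds the E-box letters CACGTG and is induced by T-cell activation. GATA3 is a zinc finger factor of T-cell development that binds GATA letters, and H3K27ac marks active promoters and enhancers.

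Sequences before the start of 3 members are shown. EBP and FDPS carry a GATA motif inside regions of both factors, and SREBF2 carries the sterol element inside a BHLHE40 region. CYP51A1, not shown, has AGATAA inside its BHLHE40 region but outside its GATA3 region. The printed sequences were chosen after the values were seen, come from RefSeq on GRCh38.p14, and are written 5′ to 3′ in the direction of the gene. Positions are counted from the start base as 0, with negative numbers before it. In EBP, capitals mark TGATAA, a motif of GATA factors whose first base is at -232, together with the NF-Y motif CCAAT where it reads on the opposite strand (ATTGG):
EBP, chrX:48521558-48521807 (plus strand): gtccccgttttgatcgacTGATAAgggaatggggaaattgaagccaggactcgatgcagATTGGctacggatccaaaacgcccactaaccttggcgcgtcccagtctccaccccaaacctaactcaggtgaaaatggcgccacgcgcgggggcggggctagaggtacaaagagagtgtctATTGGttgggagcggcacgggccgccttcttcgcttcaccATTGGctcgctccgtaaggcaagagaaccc
In FDPS, capitals mark the GATA motif AGATAA on the other strand, TTATCT, at -74, and CCAAT in either direction:
FDPS, chr1:155308736-155308865 (plus strand): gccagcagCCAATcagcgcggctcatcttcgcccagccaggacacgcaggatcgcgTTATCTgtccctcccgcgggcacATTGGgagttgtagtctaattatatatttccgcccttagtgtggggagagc
In SREBF2, capitals mark TCACCCCAC at -133, a match to the sterol regulatory element letters TCACNCCAC, and 1 CCAAT on the other strand:
SREBF2, chr22:41832855-41833104 (plus strand): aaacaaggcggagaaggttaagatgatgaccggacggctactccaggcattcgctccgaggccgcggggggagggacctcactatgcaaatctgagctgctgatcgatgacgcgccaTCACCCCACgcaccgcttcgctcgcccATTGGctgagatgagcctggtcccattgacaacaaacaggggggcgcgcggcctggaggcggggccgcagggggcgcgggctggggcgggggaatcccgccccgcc

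The E-box CACGTG, in capitals, is shown with its surroundings for 3 members that had it inside a BHLHE40 region and for ABCA1, which had it with no BHLHE40 region:
SCAP, chr3:47475982-47476011 (minus strand): cgccgctgggcgCACGTGcggagggcggcg
INSIG1, chr7:155297811-155297840 (plus strand): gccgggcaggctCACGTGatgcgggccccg
SC5D, chr11:121292628-121292657 (plus strand): gcgcgcggcgccCACGTGaccgcggagagc
ABCA1, chr9:104928285-104928314 (minus strand): gggccccggctcCACGTGctttctgctgag

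Nearly every member had a BHLHE40 region, and it usually lay at the start of the gene. In the gene windows, 28 of 30 members (93.3%) held a BHLHE40 region, beside 61.6% of protein-coding genes, and 29 of 30 (96.7%) held an H3K27ac region, beside 78.4%. GATA3 was less widespread, with a region at 19 of 30 members (63.3%), beside 48.0%. Within 1 kb of the start, where the length of the gene does not enter, BHLHE40 was listed at 23 of 25 members (92.0%), beside 49.6% of genes, and H3K27ac at 23 of 25 (92.0%), beside 57.6%. GATA3 was listed there at 8 of 25 (32.0%), beside 23.7%. The median gene record was 21940 bp long in the members and 24115 bp in all protein-coding genes.

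**Figure D1:**
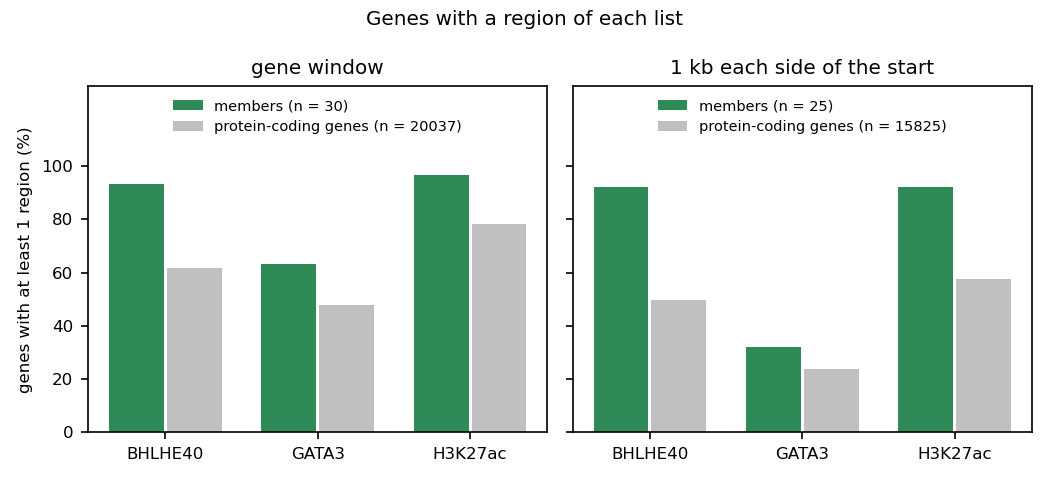
Share of genes (%, vertical axis) with at least 1 region of each list, in the gene window (left) and within 1 kb of the start (right). Green bars stand for the members and grey bars for protein-coding genes, without error bars since each list is 1 value; the BHLHE40 bars at the start differ most, 92.0% against 49.6%.

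Active chromatin went with much of this. Among genes that had an H3K27ac region within 1 kb of the start, BHLHE40 was listed there at 22 of 23 members (95.7%) and at 83.0% of protein-coding genes. In the same comparison GATA3 was listed at 7 of 23 members (30.4%) and at 39.7% of genes, so its share in the members was above that of all genes and below that of genes with the mark. Over the gene windows with H3K27ac the shares were 93.1% against 77.0% for BHLHE40 and 62.1% against 58.9% for GATA3. How far the mark accounts for the BHLHE40 counts was not tested. In 24 of the 30 windows another protein-coding gene had its record as well, so a region can belong to the neighbour. Below, some regions nearer to the start of another gene are named as such, not all of them.

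**Figure D2:**
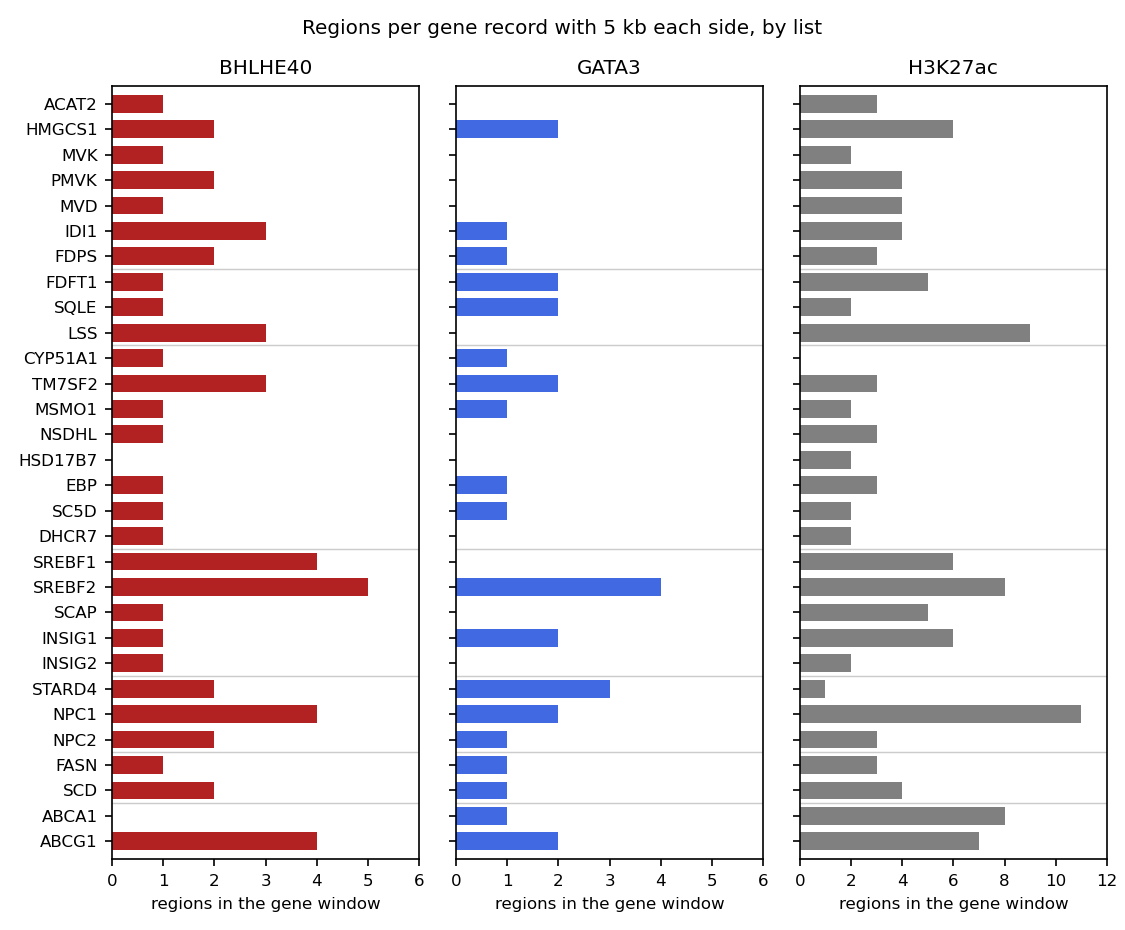
Number of regions in each gene window (horizontal axis) for the 30 members, in 1 panel per list, with grey lines between the roles. SREBF2 has the most factor regions, with 5 of BHLHE40 and 4 of GATA3, and NPC1 has the most H3K27ac regions, 11.

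The windows held 53 BHLHE40, 31 GATA3 and 123 H3K27ac regions in all, and 66 of those for H3K27ac reached 5 in −log10 q. Per gene the median was 1 BHLHE40, 1 GATA3 and 3 H3K27ac regions in the members, and 1, 0 and 3 in protein-coding genes. BHLHE40 lay nearer to starts than GATA3, in the members as in all genes. Over the members with a known start, 25 of 45 BHLHE40 summits (the highest point of a region) lay within 1 kb of a start (55.6%), beside 40.4% over the windows of protein-coding genes. The nearest BHLHE40 summit was a median of 138 bp away in 23 members and 160 bp in 10120 genes. For GATA3, 7 of 24 summits were within 1 kb (29.2%), beside 20.5%, and the nearest lay a median of 1214 bp away in 15 members and 1824 bp in 7931 genes. H3K27ac had 35 of 103 summits within 1 kb (34.0%), beside 19.8%, with medians of 293 bp in 24 members and 247 bp in 12735 genes. All 3 lists thus had a larger share of their summits near starts in the members than in all genes.

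**Figure D3:**
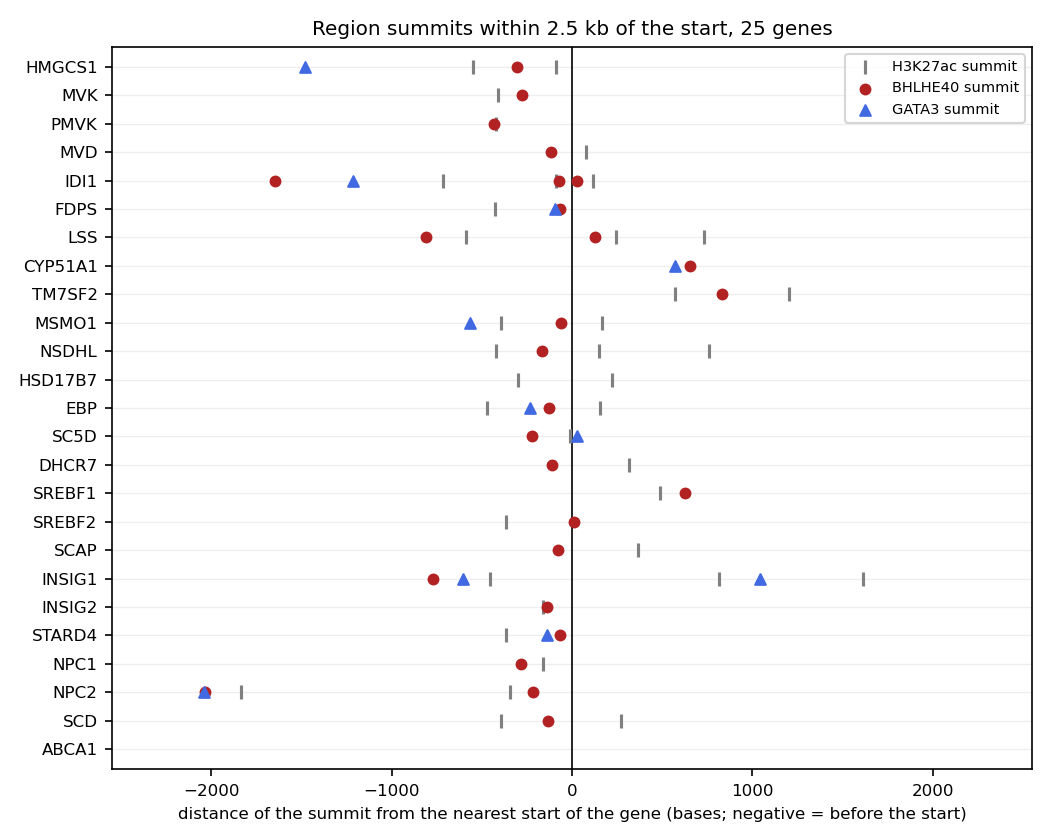
Distance of region summits from the nearest start of the gene (bases, negative before the start), within 2.5 kb, for the 25 members with a known start. BHLHE40 (red circles) gathers near the line at 0 in 23 members, GATA3 (blue triangles) appears at fewer members, and ABCA1 has no summit of any list in the plotted range.

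The enzymes of the early mevalonate pathway all had BHLHE40 and H3K27ac, 7 of 7 genes, and 3 of 7 had GATA3. Over all protein-coding genes the shares were 61.6% for BHLHE40, 78.4% for H3K27ac and 48.0% for GATA3. HMGCS1 encodes HMG-CoA synthase. Its BHLHE40 region at chr5:43312590-43314122 had its summit 305 bases before the start and a signal value of 10.1, the authors' measure of enrichment per region, used here to rank regions within a list: this one ranked 11789 of 26205. Its GATA3 regions were weak, with signal values of 6.45 and 6.38, lay 6983 bases after and 1482 bases before the start, and overlapped neither BHLHE40 nor H3K27ac. ACAT2, the thiolase that joins acetyl-CoA units, had 1 BHLHE40 region with a signal value of 11.4. It also covers the start of SOD2, whose start lay 182 bp from the summit.

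MVK and PMVK are the kinases that phosphorylate mevalonate in succession, and MVD is the decarboxylase after them. Their H3K27ac regions at the start were among the highest of the mark, with no GATA3 region in any of the 3 windows. MVK had an H3K27ac signal value of 17.4, rank 285 of 113570, at chr12:109572997-109573628. MMAB, the neighbour read the other way, starts 123 bp from that summit, and only 14 bp from the summit of the MVK BHLHE40 region, which had a modest signal value of 8.42. PMVK had an H3K27ac signal value of 16.8 (rank 340) at chr1:154936444-154937803 with a BHLHE40 signal value of 19.3 (rank 3501), and the summits were 422 and 432 bases before the start. MVD had an H3K27ac signal value of 13.9 (rank 702) at chr16:88662472-88663482 and a BHLHE40 signal value of 7.64. So strong acetylation was found with BHLHE40 regions from the lower part of that list as well as with stronger ones.

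IDI1 and FDPS make and join the isoprenoid units. IDI1 had BHLHE40 summits 73 bases before 1 of its starts and 28 bases after another, with signal values of 9.48 and 13.4. Its GATA3 region, signal value 7.61, lay 1214 bases before a start. FDPS had the summits of both factors close to its start: the GATA3 summit (signal value 12.2, chr1:155308313-155309066) was 92 bases and the BHLHE40 summit (8.33, chr1:155308270-155309984) 64 bases before the start. The AGATAA letters printed above lie between them, 20 bp from the GATA3 summit and 8 bp from the BHLHE40 summit. The second BHLHE40 region of the FDPS window had its summit 40 bp from the start of RUSC1.

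From squalene to lanosterol, all 3 enzymes had BHLHE40 and H3K27ac, beside 61.6% and 78.4% of protein-coding genes. FDFT1 and SQLE also had GATA3, beside 48.0%. FDFT1, squalene synthase, had overlapping BHLHE40 (signal value 7.77) and GATA3 (17.9) regions with summits 647 bp apart. SQLE, the epoxidase that acts on squalene, had a BHLHE40 signal value of 16.4 and a GATA3 region overlapping it with 7.29. Its stronger GATA3 region (12.4, chr8:124997026-124997582) overlapped neither BHLHE40 nor H3K27ac. The summit of that region lay 1160 bp outside the SQLE record, in that of SQLE-DT. LSS, which closes the ring system to give lanosterol, had no GATA3 region within 44094 bp of its record. It had 3 BHLHE40 regions, and the strongest (16.7, chr21:46227771-46229092) had its summit 130 bases after the start, 87 bp from a CACGTG.

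Among the 8 enzymes from lanosterol to cholesterol, 7 had BHLHE40, 7 had H3K27ac and 5 had GATA3. The shares over protein-coding genes were 61.6%, 78.4% and 48.0%. EBP, the sterol isomerase, had the strongest GATA3 region of all members, at chrX:48521077-48522085 with a signal value of 121, rank 150 of 29009. This put it at the 99.0th percentile of protein-coding genes with a GATA3 region. Its summit was 234 bases before the start and 4 bp from the TGATAA printed above. A BHLHE40 region overlapped it (chrX:48521209-48522168, signal value 10.3), with its summit 128 bases before the start. The H3K27ac regions lay to either side, chrX:48521203-48521518 and chrX:48521708-48522723, with signal values of 5.51 and 5.97, and neither factor's summit was inside them. Strong GATA3 enrichment thus went with a middling BHLHE40 and H3K27ac level at this gene.

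CYP51A1, the lanosterol demethylase, was the only member with no H3K27ac region in its window, and the nearest was 12303 bp from its record. It still had BHLHE40 (signal value 7.09, chr7:92133484-92134793) and GATA3 (7.34, chr7:92133633-92134125), 653 and 570 bases after the start. HSD17B7, a ketosteroid reductase, showed the reverse: 2 H3K27ac regions, the stronger at chr1:162790785-162791261 with a signal value of 7.95, and neither factor. The nearest GATA3 region was 10368 bp and the nearest BHLHE40 region 10434 bp from its record. The members CYP51A1 and HSD17B7 show that mark and factor did not always come together here. TM7SF2, a sterol reductase, had 3 BHLHE40 regions in a window shared with 3 other protein-coding genes. The region on TM7SF2 itself had a signal value of 11.0, 834 bases after the start, whereas the strongest (19.8) had its summit 137 bp from the start of ZNHIT2 and another (11.4) was 54 bp from that of MRPL49. The GATA3 regions of this window, with signal values of 5.03 and 7.76, had summits outside the TM7SF2 record and nearest to the start of ZNHIT2.

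The other enzymes of this step had low or middling factor regions at the start. MSMO1, a methylsterol oxidase, had a BHLHE40 signal value of 5.81 and a GATA3 signal value of 11.0, 59 and 565 bases before the start. SC5D, a desaturase, had 5.85 for BHLHE40 and 11.3 for GATA3, 221 bases before and 27 bases after. DHCR7, which makes cholesterol in its last step, had BHLHE40 alone with 6.26, and its summit was 25 bp from the start of the divergent transcript DHCR7-DT. NSDHL, a sterol dehydrogenase, had BHLHE40 alone with 9.92, and its summit was 137 bp from the start of CETN2 and 169 bases before its own.

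The 5 genes of SREBP control all had BHLHE40 at the start, beside 49.6% of protein-coding genes. Their strongest regions ranged from the top of the list to its lower part. SCAP, the escort, had the strongest BHLHE40 region of the members: chr3:47475146-47476386, signal value 64.2, rank 180 of 26205 and at the 99.0th percentile of genes with a region. The summit was 76 bases before the start and 21 bp from the CACGTG at -58. The transcript LOC105377073 starts 72 bp from it, and the region covers both starts. SCAP had no GATA3 region, the nearest being 25538 bp from its record, and its H3K27ac signal value at the start was 8.02. The most enriched BHLHE40 region among these genes was therefore one without GATA3.

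INSIG1, which retains SCAP, had the widest arrangement. Its BHLHE40 region, chr7:155296619-155299726, was 3108 bp wide with a signal value of 21.6 (rank 2727), and its summit was 772 bases before the start, 719 bp from the CACGTG at -55. GATA3 had a region on each side of the start, at chr7:155296840-155297490 with a signal value of 40.6 (rank 2144) and at chr7:155298571-155299615 with 53.6 (rank 1289), and both overlapped the BHLHE40 region. The H3K27ac signal value was at most 6.06. INSIG2, the related retention protein, had BHLHE40 alone, with a signal value of 6.14 and the summit 138 bases before the start. It lay 98 bp from the start of LOC107985940. The paralogues thus stood far apart, rank 2727 against 21492 in the BHLHE40 list.

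SREBF2 encodes SREBP2, the main activator of cholesterol synthesis, and SREBF1 encodes the SREBP1 forms that act more on fatty acid genes. SREBF2 had the most factor regions of the members. Its strongest BHLHE40 region, chr22:41832634-41834938 with a signal value of 17.9 (rank 4074), was 2305 bp wide, had its summit 11 bases after the start and covered the sterol element printed above, 140 bp from the summit. No GATA3 region lay at that start. Inside the gene, 4 further BHLHE40 regions each overlapped a GATA3 region, with BHLHE40 summits from 24582 to 40355 bases after the start. The strongest GATA3 region among them was chr22:41857558-41858407 with a signal value of 21.7 (rank 5862), paired with a BHLHE40 signal value of 8.86. The second BHLHE40 region by strength, 14.6 at chr22:41859046-41859652, had its summit 6 bp from that of GATA3 (8.39).

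SREBF1 had 4 BHLHE40 regions and no GATA3 region, the nearest being 46472 bp from its record. The strongest, signal value 12.1 at chr17:17823723-17824745, was 13078 bases after the start, and the one nearest the start, 625 bases after it, had 5.83. The H3K27ac signal value at that start was 10.6 (rank 2037), above the 6.50 at SREBF2 in the same list. So the SREBP genes differed in whether GATA3 was present in the window, and in whether the strongest BHLHE40 region lay at the start or inside the gene.

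Sterol carriers had all 3 lists at 3 of 3 genes, beside 41.6% of protein-coding genes. STARD4, a soluble carrier of cholesterol, was high for both factors. BHLHE40 had regions at chr5:111511536-111513450 (27.7, rank 1587), 65 bases before the start, and at chr5:111509006-111509652 (26.1, rank 1818), 3269 bases after it. GATA3 had its strongest region at the second of these, chr5:111508887-111509946, with a signal value of 54.3 (rank 1250) and a summit 1 bp from that of BHLHE40. No H3K27ac region overlapped this inner pair, while the start had an H3K27ac signal value of 11.4 (rank 1602). NPC1 and NPC2 pass cholesterol out of the lysosome. NPC1 had an H3K27ac signal value of 15.0 (rank 544) at chr18:23585974-23586997 on the start, with BHLHE40 at 8.13. Its GATA3 region of 13.7 was 45492 bases inside the gene. NPC2 had BHLHE40 at 5.17 beside its start, 36 bp from the start of ISCA2. A pair further out, at 5.84 for BHLHE40 and 12.1 for GATA3, had its summits in the ISCA2 record.

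The fatty acid enzymes FASN and SCD, both known SREBP targets, had all 3 lists, beside 41.6% of protein-coding genes. FASN, fatty acid synthase, had a wide BHLHE40 region of 2596 bp with a signal value of 16.3 and a GATA3 region of 8.53 with its summit 4 bp away. SCD, which desaturates fatty acids, had BHLHE40 at the start with 4.73 and a stronger pair inside the gene window, chr10:100359001-100359487 for BHLHE40 (15.5) and chr10:100358987-100359829 for GATA3 (25.6), with summits 8 bp apart and 11993 and 11985 bases after the start. At SCD, as at STARD4 and SREBF2, the strongest GATA3 region was within the gene and not at its start.

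The efflux transporters, which carry cholesterol out of the cell and are known targets of the liver X receptors, differed from each other. ABCA1 had no BHLHE40 region within 32609 bp of its record and 1 GATA3 region near the foot of the list, with a signal value of 5.20 and rank 28077 of 29009. Its 8 H3K27ac regions reached a signal value of 3.56, and none was within 1 kb of the start. ABCA1 was the only member with a known start that lacked both BHLHE40 and H3K27ac there. ABCG1 had 4 BHLHE40 and 2 GATA3 regions inside its record. Its strongest GATA3 region, chr21:42238224-42239096, had a signal value of 60.8 (rank 981) and a summit 17 bp from that of a BHLHE40 region with 14.0 (chr21:42238129-42239009). No H3K27ac region overlapped that pair.

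Enrichment at the members was not unusually high in either factor list. The strongest BHLHE40 region per gene had a median signal value of 10.8 over 28 members and 12.4 over protein-coding genes with a region, and 12 of 28 members were above the latter. For GATA3 the medians were 12.2 and 14.1, with 7 of 19 members above. For H3K27ac they were 7.28 and 6.46, with 18 of 29 above. The members thus stood above all genes in how many had a BHLHE40 or H3K27ac region, while the strength of the BHLHE40 region was below the protein-coding median in more members than above it. Regions at the start were somewhat wider: a median of 1302 bp over 25 BHLHE40 regions and 1057 bp over 7746 of protein-coding genes, and 662 against 544 bp for H3K27ac. For GATA3 they were 860 and 867 bp, over 9 and 3572 regions.

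**Figure D4:**
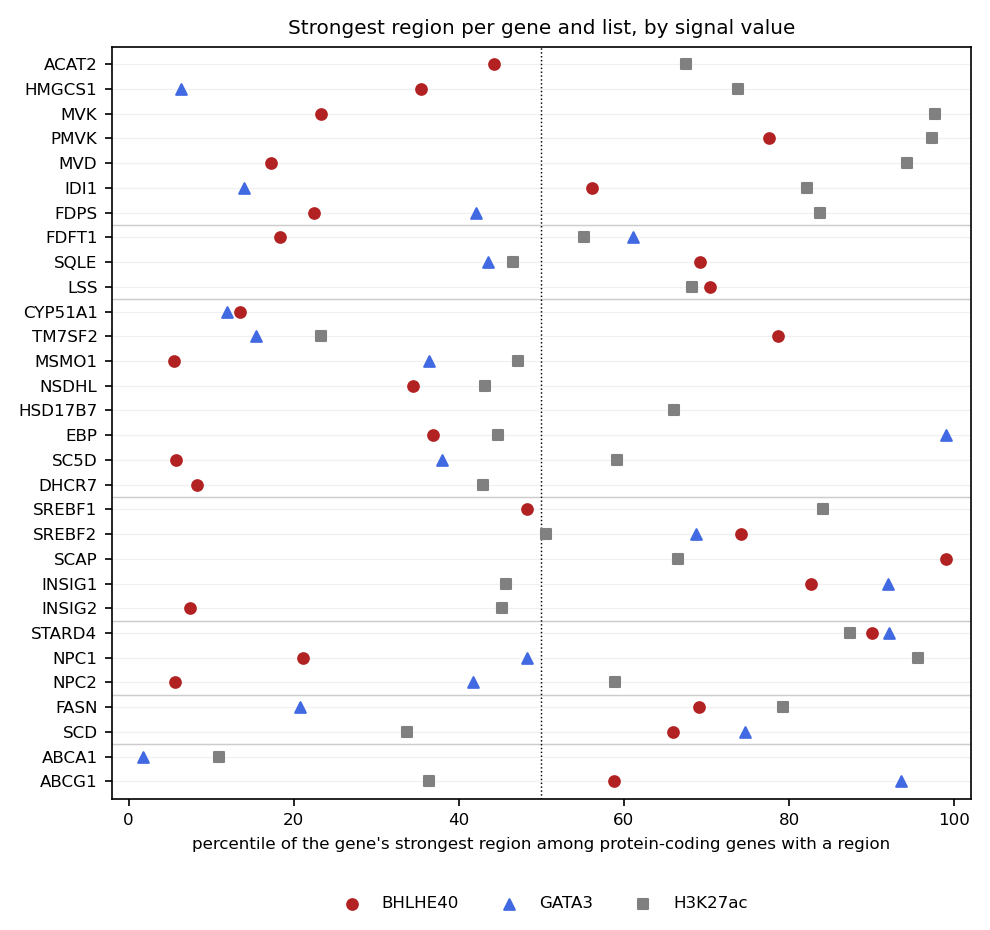
Percentile of each member's strongest region (horizontal axis) among protein-coding genes with a region of the same list, for BHLHE40 (red circles), GATA3 (blue triangles) and H3K27ac (grey squares). A missing symbol means no region; the dotted line is the median gene, and SCAP for BHLHE40 and EBP for GATA3 stand at 99.0.

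The factors often met. A GATA3 region overlapped a BHLHE40 region in the windows of 17 of 30 members (56.7%), beside 35.8% of protein-coding genes, and all 3 lists were present at 17 of 30 (56.7%), beside 41.6%. These are not the same genes: HMGCS1 had all 3 lists without an overlap of the factors, and CYP51A1 had the overlap without H3K27ac. Among genes with an H3K27ac region in the window, the factors overlapped at 16 of 29 members (55.2%), beside 45.2% of genes. Of the 31 GATA3 regions 23 overlapped BHLHE40 (74.2%), beside 55.4% over the windows of all protein-coding genes, and of the 53 BHLHE40 regions 24 overlapped GATA3 (45.3%), beside 47.5%. The 24 pairs within the windows had summits a median of 78.5 bp apart, beside 40 bp over 10215 pairs of protein-coding genes, and 11 of 24 (45.8%) were at most 50 bp apart, beside 56.5%. The closest were in the windows of STARD4 (1 bp), FASN (4 bp), NPC2 (5 bp), SREBF2 (6 bp) and SCD (8 bp).

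By role, overlapping factor regions were present at 2 of 7 early mevalonate genes, 2 of 3 from squalene to lanosterol and 5 of 8 from lanosterol to cholesterol. They were present at 2 of 5 SREBP control genes, 3 of 3 carriers, 2 of 2 fatty acid enzymes and 1 of 2 efflux transporters. The share over all protein-coding genes was 35.8%. Some of these pairs may belong to a neighbour. The NPC2 pair had its summits in the ISCA2 record, 2036 and 2041 bp outside that of NPC2. At TM7SF2 the paired GATA3 summit was 1656 bp outside the record and 185 bp from the start of ZNHIT2. Members with no GATA3 region at all were ACAT2, MVK, PMVK, MVD, LSS, NSDHL, HSD17B7, DHCR7, SREBF1, SCAP and INSIG2. These groups are small and no difference between roles was tested.

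At the start, the BHLHE40 summit lay inside an H3K27ac region in 17 of 23 members (73.9%), beside 78.2% of the 7843 protein-coding genes with BHLHE40 there. It lay in a gap between 2 H3K27ac regions in 4 members (17.4%), TM7SF2, MSMO1, NSDHL and EBP, beside 10.4%. All of these are enzymes from lanosterol to cholesterol, but SC5D and DHCR7 of the same step had the summit inside an H3K27ac region. The gap at TM7SF2 rests on a weak H3K27ac region, with a signal value of 2.35 and rank 109680 of 113570. NPC2 had a region on 1 side only, and CYP51A1 had none within 1000 bp. Over the windows as a whole, 42 of 53 BHLHE40 regions (79.2%) overlapped H3K27ac, beside 80.8% in all protein-coding windows, and 18 of 31 GATA3 regions did (58.1%), beside 56.2%. The share of regions in marked chromatin was thus close to that of all genes for both factors.

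Motif letters were counted on both strands in the 300 bases from 250 before to 50 after each start. The GC box GGGCGG was present in 24 of 25 members (96.0%), all but NSDHL, beside 64.3% of genes, and CCAAT in 18 (72.0%), beside 42.1%. The E-box CACGTG was present in 5 (20.0%), LSS, SC5D, SCAP, INSIG1 and ABCA1, beside 10.9%. The sterol element letters TCACNCCAC were present in 1 (4.0%), SREBF2, beside 1.52%. Only these letters within the 300 bases were counted, so sterol elements with other letters or elsewhere were not covered. The GATA letters were no more frequent than elsewhere, AGATAA in 2 (8.00%), FDPS and CYP51A1, beside 10.2%, and TGATAA in 1 (4.0%), EBP, beside 7.34%. GGGCGG and CCAAT are thus the letters most of these promoters shared.

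**Figure D5:**
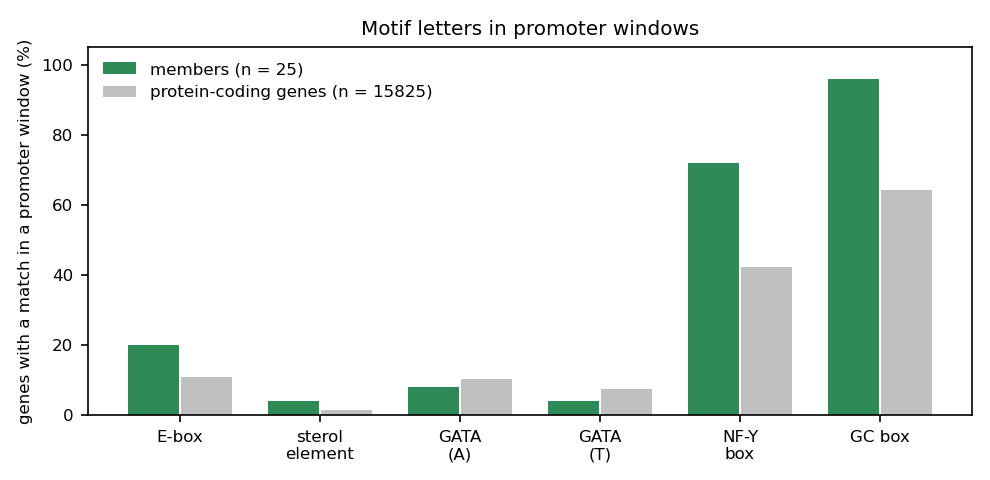
Share of genes (%, vertical axis) with each motif in a promoter window of 300 bases, for the 25 members (green) and 15825 protein-coding genes (grey). The NF-Y box and the GC box are the most frequent in the members, at 72.0% and 96.0%.

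A CACGTG lay inside a BHLHE40 region in 4 of the 5 members that had it, beside 57.6% of 1726 protein-coding genes. The exception was ABCA1, with the letters at -147. The summit was 21 bp from the letters at SCAP, 87 bp at LSS, 92 bp at SC5D and 719 bp at INSIG1, so SCAP alone had them close to its summit. Most members had BHLHE40 at the start without these letters in the window. CCAAT lay in a BHLHE40 region in 16 of 18 members, beside 46.2% of genes with CCAAT, and GGGCGG in 21 of 24, beside 56.5%. Whatever the motif, 22 of 25 members (88.0%) had BHLHE40 in these 300 bases, beside 47.4% of genes, so these counts add nothing about the letters. Over all protein-coding genes BHLHE40 was listed at 60.7% of starts with GGGCGG and 29.5% of those without, at 64.2% with CACGTG and 47.8% without, and at 52.8% with CCAAT and 47.2% without. The GC box therefore moved with BHLHE40 across all genes, and its part in the members' counts was not tested. GATA3 was listed over all protein-coding genes at 23.3% of starts with AGATAA and 23.7% of those without. For TGATAA the shares were 22.6% with the letters and 23.8% without. The GATA letters of these 300 bases thus did not go with GATA3 at the start across all genes.

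Another 18 genes of sterol and fatty acid handling, not among the 30, were counted in the same way. They include the SREBP proteases MBTPS1 and MBTPS2, the acetyl-CoA enzymes ACLY, ACSS2 and ACACA, and the liver X receptor genes NR1H2 and NR1H3. BHLHE40 was present in 17 of the 18 windows (94.4%) and H3K27ac in 18, close to the shares in the 30 genes. Over all protein-coding genes these shares were 61.6% and 78.4%. GATA3 was present in 15 (83.3%, NR1H2, FADS1 and TMEM97 had none), beside 63.3% of the 30 and 48.0% of protein-coding genes. Overlapping factors were present in 13 (72.2%), beside 56.7% of the 30 and 35.8% of protein-coding genes. Window counts depend on the length of the gene record, which was not compared for these 18 genes. Of the 16 with a known start, 14 had BHLHE40 (87.5%) and 15 had H3K27ac (93.8%) within 1 kb of it, beside 49.6% and 57.6% of protein-coding genes. GATA3 was there at 4 (25.0%), near the 23.7% of all genes.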

How the data were processed

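ChIP-seq of stimulated Jurkat cells was used as 3 deposited region lists in narrowPeak layout, each for a group of 2 samples set by the sample titles. Per the submitters' processing notes, the build was hg38 and MACS2 and bcl2fastq 2.20 were used; the aligner and the role of input DNA are not given in the sources used here. Per the file names as deposited, the factor lists passed an irreproducible discovery rate of 0.05 and the H3K27ac list was made on pooled samples. Such lists keep only what repeats or what passes after pooling, so an absent region is not a measured 0. The authors' score column ran from 540 to 1000 for both factors. The deposited signal value, a coverage-like enrichment whose reference is not given in the sources used here, was used only to rank regions within 1 list. The −log10 q values are the authors', deposited per region, and served as an alternative filter.

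A region counted when it overlapped the window by at least 1 bp. Windows came from RefSeq gene records of GRCh38.p14, and starts and sequences from the RefSeq promoter table of that build. Exons, introns and untranslated regions were not told apart. The named-gene rule gave all 30 members with counts, and regions in full for up to 6 members ranking highest per list, for SREBF1, SREBF2, INSIG1 and SCAP and for members without a factor region. FDPS, CYP51A1, SC5D and other members given in detail were chosen after their values were seen. The members and lists were chosen with earlier results of these data known. Single values of some genes on the comparison lists are not reported here. The depth of the samples is unknown. Functions were tested on simulated data. Python 3.11.15, numpy 2.4.6, pandas 2.3.3 and matplotlib 3.10.9 were used. Alternatives were no flank or 20 kb, 2.5 kb around the start, the 300 promoter bases, summits in place of any overlap, and a score of at least 830 with −log10 q of at least 5 for H3K27ac.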

Additional observations from a re-analysis of the deposited data

How the results depend on the processing

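Over 8 counts of members and 37 alternatives, 36 stayed within 1.5 times the reported count, and the members' share was above that of protein-coding genes in 35. The exceptions concern GATA3 at the start. In the 300 promoter bases it was listed at 5 of 25 members (20.0%, beside 20.6% of genes), against 8 in the wider window. Among genes with H3K27ac at the start it was 30.4%, beside 39.7%. Comparisons limited to genes with H3K27ac were 5 alternatives chosen after seeing the data. The 1.5 times rule follows the members' count alone, and a count close to all members could not rise that far. The gap to all genes did narrow under this limit. BHLHE40 at the start was 95.7% beside 83.0%, against 92.0% beside 49.6% without it. GATA3 in the window was 62.1% beside 58.9%, against 63.3% beside 48.0%. Members with a BHLHE40 region numbered 27 to 29, with GATA3 15 to 23, with H3K27ac 28 to 30, with all 3 lists 13 to 22 and with overlapping factors 13 to 19. At the start they numbered 21 to 23 for BHLHE40 and 22 to 23 for H3K27ac. No paired analysis was possible because the lists merge a group's samples and give no separate replicates, which also kept any replicate from being left out. Sequencing depth is unknown. A region under a list's threshold and an absent one therefore cannot be told apart.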
